A study of Mus musculus with 28 samples.

Results

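The genes described here are 10 genes that move iron, zinc or manganese across membranes or hold these metals in the cell: Slc30a10, Slc39a14, Slc39a4, Slc11a2, Slc40a1, Cybrd1, Heph, Tfrc, Mt1 and Mt2. They were chosen by name and function, and each symbol was looked up in 1 count table of duodenum and 1 of kidney cortex. All 10 had a row among the 31179 symbols for duodenum and among the 30227 for kidney. After a filter on low counts, 10 of 10 were tested in duodenum (13302 genes tested) and 7 of 10 in kidney (13502 genes tested). Slc30a10, Slc39a4 and Cybrd1 had too few kidney counts. The 28 libraries came from female mice 8 weeks old, all on the diet TD.96348, in which lactose, calcium and phosphate are raised. There were, per tissue, 4 libraries from mice with a Vdr AF2 allele, whose vitamin D receptor lacks the activation function that recruits coactivators (AF2), 4 of Vdr-/- mice, which the column heads also call demay (KO), and 6 of Vdr+/+ mice (WT). The labels do not say whether each library is a separate mouse, or whether both tissues come from the same mice, so p-values measure the spread between these samples, which may be technical.

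Iron enters the duodenal enterocyte after Cybrd1, a ferric reductase of the brush border, has reduced it and Slc11a2, the divalent metal transporter DMT1, has carried it in. Slc40a1 (ferroportin) exports it at the basolateral side, where the ferroxidase Heph oxidises it for transferrin, and Tfrc, the transferrin receptor, takes up transferrin-bound iron from the blood. Slc39a4 (ZIP4) takes up dietary zinc, Slc39a14 (ZIP14) takes up manganese, zinc and iron, Slc30a10 (ZnT10) exports manganese, and the metallothioneins Mt1 and Mt2 bind zinc and copper in the cytosol. Slc30a10 is a known target of the vitamin D receptor, and the design asks how mineral handling differs between mice without the receptor and mice whose receptor works without coactivators.

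Library totals were 3713352 to 25181916 counts in duodenum, with WT 2 the highest and 6519522 the next, and 3725648 to 6492228 counts in kidney. Vdr, the targeted gene, measured 362 to 432 CPM (counts scaled to the library total) in AF2, between 97.3 and 120.2 CPM in KO and between 267 and 646 CPM in WT duodenum, and 64.8 to 91.9 CPM in AF2 kidney, 7.94 to 22.1 CPM in KO kidney and 177 to 212 CPM in WT kidney. Every KO library lay below every AF2 and WT library, though tags from a part of the gene that is not deleted would still be counted. The tissues carried their own markers: the summed level of 8 enterocyte genes was 7154 to 13817 CPM in duodenum, and that of 8 proximal tubule genes was 12287 to 21561 CPM in kidney. Duodenal libraries also held pancreatic enzyme transcripts, whose sum over 11 genes ran from 44.1 to 20098 CPM with wide ranges in each genotype. In kidney, AF2 4 stood apart on the first principal component (27.0% of the variance), at 48.4 beside -20.7 to 5.51 in the other libraries.

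Several of these genes carry a known iron-responsive element, a hairpin in the messenger RNA that iron regulatory proteins bind when iron is short. The sequences are shown because Slc11a2, the 1 member with a genotype difference that passed, is among the carriers. All coding transcripts of the 10 genes in GENCODE vM21 (GRCm38) were searched for the loop CAGTGN (N not G) with an unpaired C and a stem of 5 pairs before it, and then with 1 further unpaired base allowed on the 3′ side of the stem, a form added after the first search had missed Slc11a2. Capitals mark the loop, and the letters are read 5′ to 3′ on the gene's strand.
Tfrc, 3′ UTR, chr16:32631219-32631247 (+): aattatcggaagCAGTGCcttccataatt
Tfrc, 3′ UTR, chr16:32631598-32631626 (+): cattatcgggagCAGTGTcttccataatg
Tfrc, 3′ UTR, chr16:32631663-32631691 (+): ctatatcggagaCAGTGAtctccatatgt
Tfrc, 3′ UTR, chr16:32631710-32631738 (+): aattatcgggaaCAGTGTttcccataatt
Slc40a1, 5′ UTR, chr1:45925465-45925493 (-): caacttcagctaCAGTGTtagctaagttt
Slc11a2, 3′ UTR, chr15:100395153-100395180 (-): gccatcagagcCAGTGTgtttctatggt
Tfrc held 4 matches, Slc40a1 and Slc11a2 held 1 each, and the transcripts of the other 7 genes held 0. The stem of 5 pairs occurs in 1.01% of 21877 protein-coding genes and either form in 3.46%, anywhere in a transcript, so a match alone is a description of letters. In Slc11a2 the element belongs to transcripts with one of alternative 3′ ends, and counts per symbol do not separate them.

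Slc30a10 did not differ between genotypes in duodenum beyond the spread of the libraries. It measured 272, 283, 281 and 160.5 CPM in AF2, 228, 205, 309 and 399 CPM in KO, with 211, 278 and 317 CPM in WT (lowest, median and highest). All 3 groups overlapped, with the single lowest value in AF2 4 and the highest in KO 4. The means were 249 ± 59.2 CPM in AF2 (SD, n = 4), 286 ± 88.0 CPM in KO (SD, n = 4) and 271 ± 44.4 CPM in WT (SD, n = 6), and no neighbours in that order differed beyond their spread. By edgeR's quasi-likelihood test, with p-values adjusted by Benjamini-Hochberg over all genes, the log2 fold change was -0.13 in AF2 over WT (95% interval -0.53 to 0.28, adjusted p 0.861), 0.07 in KO over WT (-0.33 to 0.47, adjusted p 0.917) and -0.20 in AF2 over KO (-0.64 to 0.24, adjusted p 0.82). The intervals leave room for a KO level between 0.797-fold and 1.39-fold that of WT, and for an AF2 level between 0.694-fold and 1.21-fold. Slc30a10 (chromosome 1, 185454848 to 185468762, plus strand) overlaps the minus-strand noncoding gene Gm2061. The use of strand in counting is not stated, so reads from any shared stretch cannot be told apart. Gm2061 has its own row, which summed to 243 CPM over the 14 duodenal libraries. The 300-base promoter window held 0 matches to a vitamin D response element of the DR3 type (a pair of hexamers 3 bases apart, either strand), letters that occur in 13 of 32851 windows, and no match says only that they are not in this window. Over the 14 duodenal libraries the genes most like Slc30a10, among 8523 genes with a mean of at least 10 CPM, were Med4 (Pearson r 0.916), Rfxank (0.909) and Ing1 (0.854).

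The other manganese and zinc carriers did not pass in duodenum either. Slc39a14 (chromosome 14, 70303469 to 70351425, minus strand) measured 152, 172, 105.6 and 137 CPM in AF2, 104.9, 95.8, 155 and 165 CPM in KO, with 104, 154 and 219.8 CPM in WT (lowest, median and highest). Slc39a4 (chromosome 15, 76612383 to 76617384, minus strand) measured 205, 284, 145 and 147 CPM in AF2, 146, 159, 228 and 279 CPM in KO, with 121, 207 and 314 CPM in WT. The genotypes overlapped in both genes. Adjusted p ran from 0.642 to 0.974 over the 3 comparisons of both genes, and the largest log2 fold change was -0.26 (95% interval -0.68 to 0.16) for Slc39a14 in KO over WT.

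None of the 10 genes passed in duodenum in any comparison, and in none did the groups stand clear of each other, as they did in 2.73% of all genes in AF2 over WT, 2.2% in KO over WT and 6.56% in AF2 over KO. The count was 0 of 10 in AF2 over WT, where 0.0677% of all genes passed, 0 of 10 in KO over WT, where 0.0226% passed, and 0 of 10 in AF2 over KO, where 0.015% passed. At an unadjusted p under 0.05 there were 1, 0 and 0 of the 10 in these comparisons, beside 11.8%, 11.4% and 9.98% of all genes, and DESeq2 and limma-voom called 0 of the 10 as well. The plot of duodenal levels shows the spread of the libraries within each genotype.

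**Figure D1:**
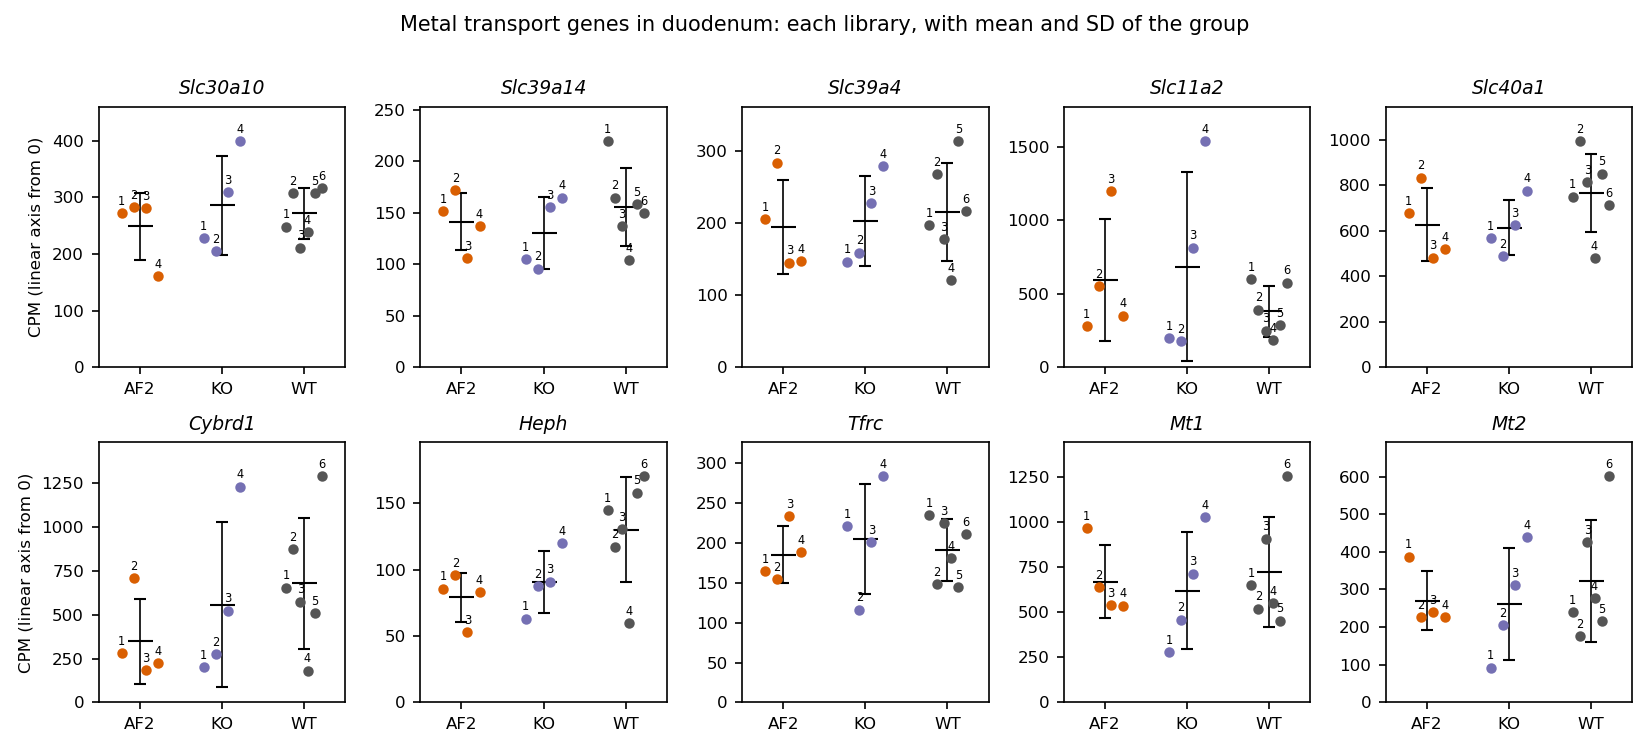
CPM (y axis, linear, from 0) of each of the 10 genes in the 14 duodenal libraries, by genotype (x axis), with the replicate number beside each point and the mean and SD of the group as bars. All groups overlap in every gene, and KO 4 is the highest KO library in each of the 10 panels.

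Iron uptake at the brush border varied most from library to library. Slc11a2 (chromosome 15, 100387898 to 100425072, minus strand) measured 281, 549.8, 1196 and 350.2 CPM in AF2, 199, 179, 814 and 1539 CPM in KO, with 182, 338 and 597 CPM in WT (lowest, median and highest). AF2 3, KO 3 and KO 4 exceeded every WT library, while KO 1 and KO 2 lay near the lowest WT value. Its means were 594 ± 417 CPM in AF2 (SD, n = 4), 683 ± 643 CPM in KO (SD, n = 4) and 380.0 ± 174 CPM in WT (SD, n = 6), and the log2 fold changes of 0.64 in AF2 over WT and 0.84 in KO over WT had adjusted p of 0.761 and 0.649 with intervals from -0.78 to 2.07 and from -0.58 to 2.27. Either change rests on 1 library, at 0.059 in AF2 over WT without AF2 3 and 0.065 in KO over WT without KO 4. Cybrd1 (chromosome 2, 71117923 to 71142926, plus strand) measured 279.8, 708, 184 and 225 CPM in AF2, 202, 274, 524 and 1230 CPM in KO, with 182, 614 and 1290 CPM in WT. Here 3 of 4 AF2 libraries were lower than 5 of 6 WT libraries, while WT 4 lay below all 4 AF2 libraries. The log2 fold change of Cybrd1 was -0.96 in AF2 over WT (95% interval -2.38 to 0.45, adjusted p 0.615) and -0.29 in KO over WT (-1.67 to 1.09, adjusted p 0.897). The SD of log2 CPM within genotypes was 1.04 for Slc11a2 and 0.988 for Cybrd1, beside a median of 0.261 over 8523 genes with a mean of at least 10 CPM, which put Slc11a2 above 99.5% and Cybrd1 above 99.4% of them.

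The export and uptake genes of the basolateral side spread less. Slc40a1 (chromosome 1, 45908068 to 45926523, minus strand) measured 676, 832, 481 and 517 CPM in AF2, 566, 486, 624 and 775 CPM in KO, with 479, 780.2 and 994 CPM in WT (lowest, median and highest). Heph (chromosome X, 96455359 to 96574485, plus strand) measured 85.5, 95.6, 52.8 and 83.2 CPM in AF2, 62.9, 87.7, 90.9 and 120.0 CPM in KO, with 59.9, 138 and 170.3 CPM in WT. In Heph all 4 AF2 libraries lay below 5 of the 6 WT libraries, and WT 4 lay among them. Heph had the smallest p of the 10 genes, with a log2 fold change of -0.71 ± 0.27 (SE) in AF2 over WT (unadjusted p 0.0205, adjusted p 0.333), and -0.52 ± 0.27 in KO over WT (adjusted p 0.477). Without WT 4, a library at the low end of its group, the change in AF2 was -0.85 with an adjusted p of 0.0273, a call that the fit of all libraries does not make. Heph overlaps Hsf3 on the other strand and 2 processed pseudogenes, so its counts may hold other reads. Tfrc (chromosome 16, 32608920 to 32632794, plus strand) measured 155 to 234 CPM in AF2, 116 to 283 CPM in KO and 145 to 235 CPM in WT, and its log2 fold changes lay between -0.15 and 0.11 with adjusted p from 0.881 to 0.968.

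The metallothioneins, which sit side by side on chromosome 8 (Mt2 at 94172664 to 94173568, Mt1 at 94179082 to 94180327, both plus strand), went up and down together from library to library. Mt1 measured 964, 637, 539 and 535 CPM in AF2, 278, 458, 712 and 1026 CPM in KO, with 452, 600.2 and 1252 CPM in WT (lowest, median and highest). Mt2 measured 388, 227, 241 and 226 CPM in AF2, 92.6, 205, 311 and 440 CPM in KO, with 176, 259 and 601 CPM in WT. WT 6, KO 4, AF2 1 and WT 3 were the 4 highest libraries for both genes and KO 1 the lowest. No difference between genotypes passed, with log2 fold changes between -0.30 and 0.11 and adjusted p from 0.844 to 0.987. The antisense gene Gm45774 overlaps Mt2, and how reads that match both metallothioneins were counted is not stated.

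The promoter windows of the pair are shown because these genes moved together. Metal-responsive transcription factor binds metal response elements, and capitals mark the core of that element (TGCACNC or TGCGCNC, either strand, overlapping matches counted separately). Each window runs from 250 bases before to 50 after the RefSeq start, on GRCm38.p6, plus strand.
Mt1, chr8:94178839-94179138: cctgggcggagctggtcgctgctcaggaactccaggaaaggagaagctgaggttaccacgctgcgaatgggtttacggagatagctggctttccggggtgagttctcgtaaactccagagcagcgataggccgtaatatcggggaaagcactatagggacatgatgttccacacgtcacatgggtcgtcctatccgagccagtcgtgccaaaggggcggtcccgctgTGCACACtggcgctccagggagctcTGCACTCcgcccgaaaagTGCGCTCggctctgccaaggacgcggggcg
Mt2, chr8:94172368-94172667: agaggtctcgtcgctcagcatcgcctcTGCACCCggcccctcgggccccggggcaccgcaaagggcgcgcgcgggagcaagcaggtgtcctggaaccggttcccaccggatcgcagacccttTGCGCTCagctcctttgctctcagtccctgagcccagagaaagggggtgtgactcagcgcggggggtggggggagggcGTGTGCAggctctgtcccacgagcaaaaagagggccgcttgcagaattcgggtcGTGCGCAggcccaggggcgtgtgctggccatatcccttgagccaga
Mt1 held 3 core matches and Mt2 held 4, while 25.7% of 32851 RefSeq windows held at least 1 and 1.97% at least 3. Of the 10 genes 5 were matched in this table, and the window of Slc30a10 also held 3, of which 2 overlap on opposite strands.

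Across the 14 duodenal libraries Mt2 followed Mt1 with Pearson r = 0.963 and Spearman rho = 0.943 on log2 CPM (permutation p 1e-05 each, the smallest that the permutations can give, adjusted over 7 pairs of genes 7e-05 each). Without WT 6 and KO 1, the libraries farthest from the median of Mt1, r was 0.915. It was 0.981 and 0.962 within the 2 runs of consecutive library codes that hold 6 libraries each (exact permutation p 0.00139 and 0.00972). In kidney r was 0.900 and rho 0.837 (permutation p 3e-05 and 0.00036, adjusted 0.000105 and 0.00126), and r was 0.740 without WT 1 and KO 2. Within the kidney runs r was 0.972 (exact permutation p 0.00278) and 0.653 (exact permutation p 0.136), so the relation did not pass in the run that holds the AF2 libraries. In duodenum Mt2 was the gene most like Mt1 among 8523, a comparison chosen after the values were seen.

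**Figure D2:**
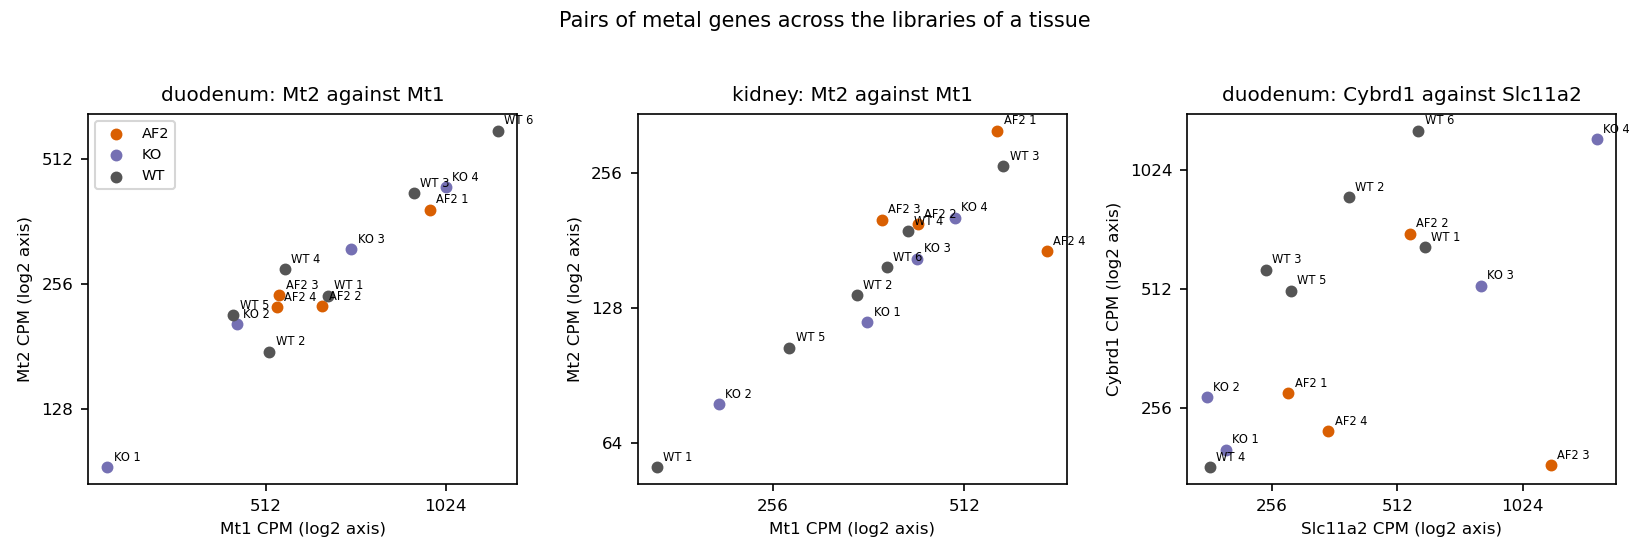
Mt2 against Mt1 in duodenum (left) and kidney (middle) and Cybrd1 against Slc11a2 in duodenum (right), 1 point per library, both axes CPM on a log2 scale, coloured by genotype. The metallothionein points lie along a line in both tissues (r = 0.963 and 0.900), while AF2 3 combines high Slc11a2 with low Cybrd1.

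Slc11a2 and Cybrd1 are both known targets of the hypoxia-inducible factor HIF2 in the gut. Their r over the duodenal libraries was 0.475 (permutation p 0.0869, adjusted 0.152; rho 0.499, p 0.0727, adjusted 0.127), which did not pass. It was 0.649 after subtracting genotype means (adjusted p 0.029), 0.704 without KO 4 and AF2 3, 0.867 in the run of codes with WT 3, WT 4 and the KO libraries (exact permutation p 0.0139) and -0.08 in the run with WT 5, WT 6 and the AF2 libraries (exact permutation p 0.893), so the value depends on which libraries enter. Slc11a2 with Tfrc had r = 0.590 (rho 0.556; permutation p 0.0257 and 0.0408, adjusted 0.06 and 0.0952) and 0.319 without KO 4 and AF2 3. After subtracting genotype means it had r = 0.614 (adjusted p 0.0329) and rho 0.534 (adjusted p 0.0889), and r was 0.392 without the same libraries, so the relation rests on them. Slc11a2 with Slc40a1 had r = 0.193 (rho 0.240; permutation p 0.506 and 0.41, adjusted 0.506 and 0.478). In kidney neither pair passed with all libraries. For Slc11a2 with Slc40a1 r was 0.400 and rho 0.196 (permutation p 0.158 and 0.501, adjusted 0.221 and 0.501). For Slc11a2 with Tfrc r was -0.22 and rho -0.32 (permutation p 0.449 and 0.26, adjusted 0.506 and 0.364). Without KO 2 and KO 3 r was -0.041 with Slc40a1 and -0.781 with Tfrc (permutation p 0.899 and 0.00239, not adjusted). After subtracting genotype means r was 0.513 and 0.144 (adjusted p 0.0832 and 0.625). The kidney values thus also depend on which libraries enter.

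Single duodenal libraries stood high or low across the set. KO 4 was the highest of the 4 KO libraries in 10 of 10 genes, where it was highest in 25.7% of 8523 genes, and WT 4 was the lowest of the 6 WT libraries in 6 of 10 genes, where it was lowest in 27.5%. The summed level of the 8 enterocyte markers followed the same libraries: KO 4 had the highest sum of the KO libraries (10214 CPM, the other 3 between 7753 and 9336 CPM) and WT 4 the lowest of the WT libraries (7634 CPM, the other 5 between 11738 and 13817 CPM). By genotype that sum was 7154 to 10260 CPM in AF2, 7753 to 10214 CPM in KO and 7634 to 13817 CPM in WT, and 0 of 8 markers were at 0 in any genotype. The mean of 8 of 8 enterocyte markers was lower than in WT in AF2 (median log2 fold change -0.40) and in KO (median -0.42). Of these 0 of 8 passed in either. Among the 10 metal genes 9 had a lower mean in AF2 than in WT (median -0.14) and 7 in KO than in WT (median -0.24). The medians over all genes rounded to 0.00 in both comparisons. The mean of 6 of 6 Paneth cell markers was higher than in WT in AF2 (median 0.58) and in KO (median 0.93), and 0 of 6 passed in either. Their sums overlapped, at 2377 to 6687 CPM in AF2, 3676 to 7652 CPM in KO and 2087 to 3868 CPM in WT. The mean of 6 of 6 smooth muscle markers was higher in AF2 than in WT and 0 of 6 passed (median 0.50), with sums of 589 to 774 CPM in AF2, 444 to 573 CPM in KO and 394 to 627 CPM in WT. Markers of proliferating crypt cells had a higher mean in KO than in WT in 8 of 8 genes and 0 of 8 passed (median 0.47), with sums of 412 to 664 CPM in AF2, 521 to 786 CPM in KO and 371 to 631 CPM in WT. The part of cell make-up in the metal genes was not tested, and in whole tissue fewer cells of a type and less RNA per cell cannot be told apart.

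In kidney 1 of the 7 tested genes differed between genotypes. Slc11a2, which in the kidney tubule recovers divalent metals, rose in AF2 relative to KO. It measured 55.5, 62.1, 59.6 and 69.9 CPM in AF2, 48.4, 28.4, 36.0 and 39.3 CPM in KO, with 45.8, 51.1 and 68.2 CPM in WT (lowest, median and highest). Every AF2 library lay above every KO library, and the WT libraries overlapped both. The means were 61.8 ± 6.10 CPM in AF2 (SD, n = 4), 38.0 ± 8.29 CPM in KO (SD, n = 4) and 52.8 ± 8.07 CPM in WT (SD, n = 6). The log2 fold change of AF2 over KO was 0.71 ± 0.16 (SE), or 1.63-fold (95% interval 1.31 to 2.03), with an adjusted p of 0.0343 by edgeR, in a comparison where 0.333% of all genes passed and groups did not overlap in 7.16%. Against WT neither genotype passed: the change was 0.23 ± 0.14 in AF2 (adjusted p 0.481) and -0.48 ± 0.14 in KO (adjusted p 0.128), where 2.71% and 0.844% of all genes passed and groups stood apart in 4.73% and 3.44%. No other gene of the 7 passed or stood apart in any of the 3 comparisons, and DESeq2 and limma-voom called Slc11a2 in AF2 over KO and no other. Slc11a2 overlaps the plus-strand protein-coding gene Gm5475, and since the use of strand in counting is not stated, reads of the 2 cannot be told apart.

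The call of Slc11a2 was close to the threshold. It was lost without WT 3 (adjusted p 0.0566), KO 2 (0.160), KO 3 (0.0922), KO 4 (0.0770), AF2 2 (0.0548), AF2 3 (0.0631) or AF2 4 (0.0610), while its log2 fold change stayed between 0.60 and 0.83 over the 14 fits with 1 library left out. KO against WT passed in 1 of these fits, without KO 1 (log2 fold change -0.61, adjusted p 0.0354). AF2 and KO libraries carry separate stretches of consecutive library codes and share codes with WT libraries only. A fit that blocks on these stretches gave 0.52 with an adjusted p of 0.917. Within the stretches, the 4 KO libraries lay below both WT libraries that share their codes (52.7 CPM in WT 3 and 49.4 CPM in WT 4), and the AF2 libraries overlapped theirs (68.2 CPM in WT 5 and 47.6 CPM in WT 6). Proximal tubule marker sums over 8 genes were 12287 to 16296 CPM in AF2, 15548 to 17950 CPM in KO and 15751 to 21561 CPM in WT. None of these markers was at 0. In AF2 over KO 7 of 8 had a lower mean and 0 of 8 passed (median log2 fold change -0.12). In that comparison 1 of 7 distal tubule and collecting duct markers passed, lower, and 1 of 5 podocyte markers, higher, beside 0.333% of all genes. The part of cell types in the Slc11a2 difference was not tested.

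**Figure D3:**
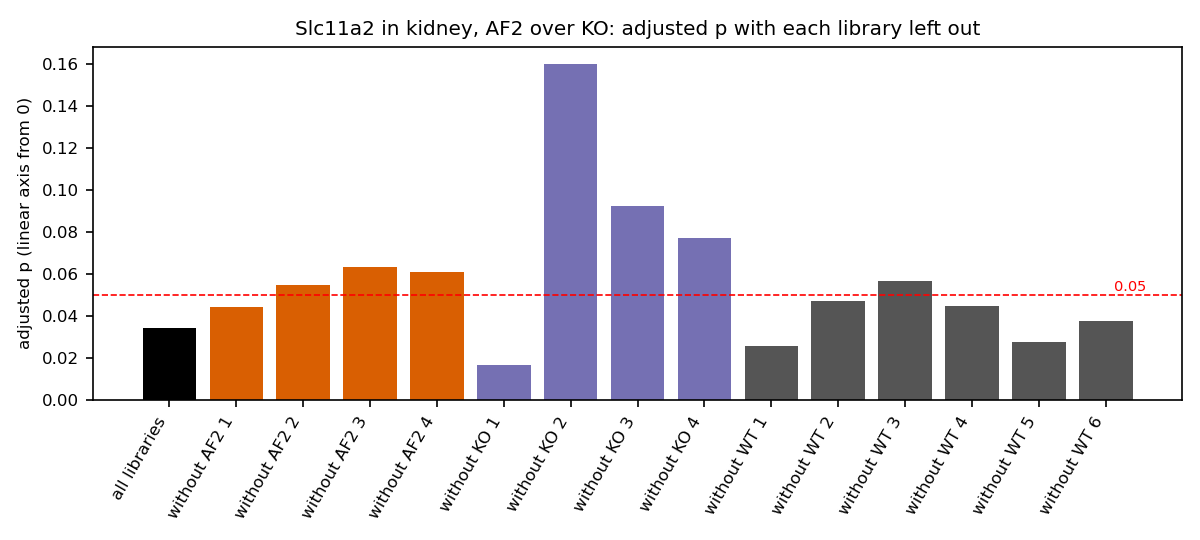
Adjusted p (y axis, linear, from 0) of Slc11a2 in kidney, AF2 over KO, in the fit of all 14 libraries (black) and in 14 fits that leave out 1 library each (x axis), coloured by the genotype of the library left out. The dashed line marks 0.05, and 7 of the 14 bars exceed it, the highest (0.160) without KO 2.

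Slc11a2 lies 2.48 Mb from the targeted Vdr locus on chromosome 15. Among 110 tested genes within 5 Mb of Vdr, Vdr itself not counted, 4 passed between AF2 and KO kidney (Lima1, Methig1, Slc11a2 and Smagp), or 3.64% beside 0.333% of all genes. The window was chosen after the values were seen, and Slc11a2, already called, is 1 of the 4. This share is therefore not independent of the Slc11a2 call. In AF2 over WT kidney 5 of the 110 passed, or 4.55% beside 2.71% of all genes, and in KO over WT 4, or 3.64% beside 0.844%. In duodenum 0 of 98 genes in the window passed in any of the 3 comparisons. The effect of the allele and that of linked DNA carried along with it cannot be told apart here. Slc39a4, on the same chromosome at 21.2 Mb from Vdr, had almost no kidney reads.

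The other 6 tested genes did not pass in kidney. Slc40a1 was the steadiest, with 45.9 to 51.2 CPM in AF2, 42.4 to 56.3 CPM in KO and 47.3 to 70.2 CPM in WT, and log2 fold changes of -0.22 in AF2 over WT, -0.24 in KO over WT and 0.03 in AF2 over KO. Slc39a14 measured 8.57, 14.95, 9.65 and 6.56 CPM in AF2, 9.78, 15.2, 15.9 and 20.04 CPM in KO, with 6.68 to 19.9 CPM in WT, with a log2 fold change of -0.63 ± 0.29 in AF2 over KO (unadjusted p 0.0373, adjusted p 0.404). Heph measured 9.34 to 14.1 CPM in AF2, 8.70 to 16.99 CPM in KO and 9.94 to 13.7 CPM in WT.

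Tfrc was uneven in kidney. It measured 37.3, 55.1, 52.9 and 36.4 CPM in AF2, 85.5, 37.5, 44.6 and 161 CPM in KO, with 35.2, 52.5 and 97.5 CPM in WT (lowest, median and highest), so that KO 4 exceeded every other kidney library while KO 2 and KO 3 lay within the AF2 range. Its log2 fold change in AF2 over KO was -0.85 ± 0.46 (adjusted p 0.527). Mt1 averaged 519.9 ± 141 CPM in AF2, 374 ± 122 CPM in KO (SD, n = 4 each) and 363 ± 142 CPM in WT (SD, n = 6), and Mt2 averaged 222 ± 65.3 CPM in AF2, 141 ± 54.5 CPM in KO and 152 ± 71.6 CPM in WT. For both metallothioneins 3 of 4 AF2 libraries lay within the WT range, with log2 fold changes over WT of 0.52 and 0.54 and adjusted p of 0.534 and 0.580.

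**Figure D4:**
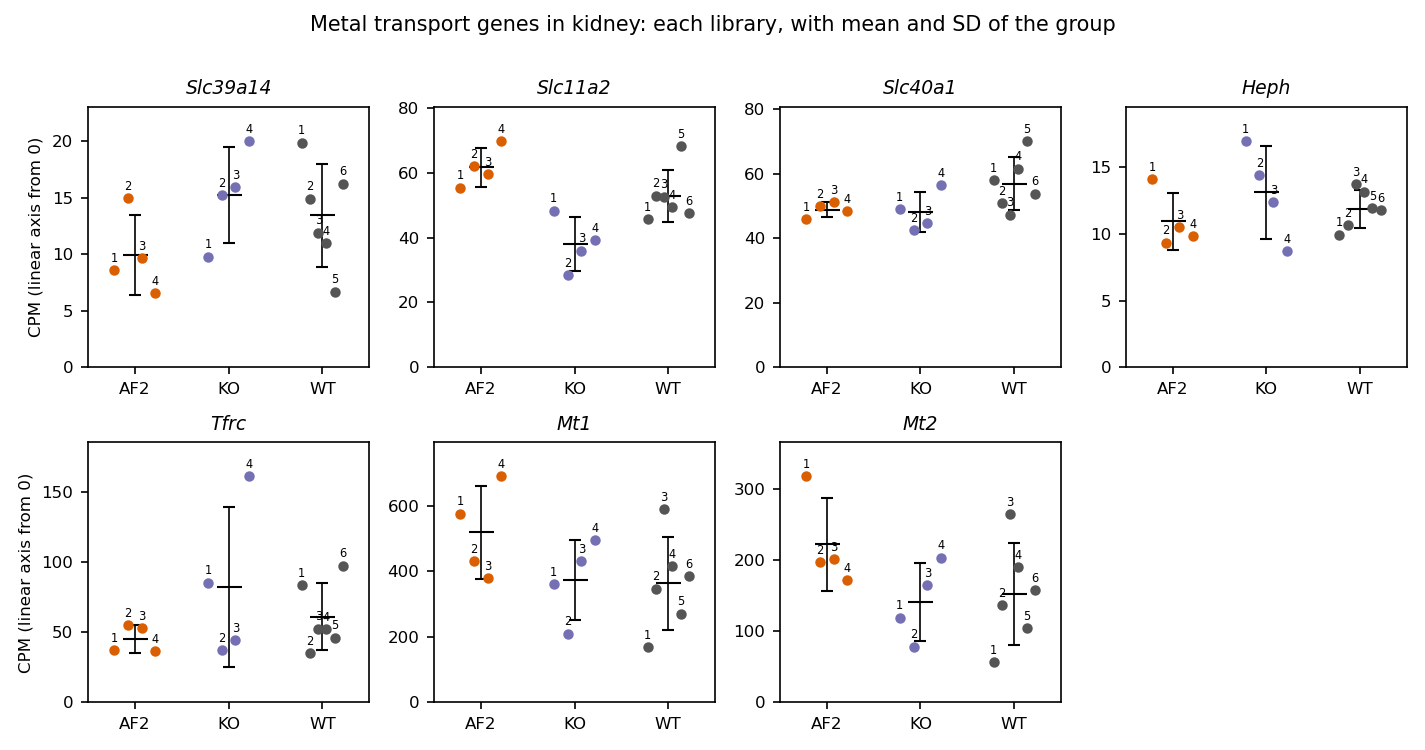
CPM (y axis, linear, from 0) of the 7 genes tested in kidney in each of the 14 libraries, by genotype (x axis), with the replicate number beside each point and the mean and SD of the group as bars. In Slc11a2 all AF2 libraries (55.5 to 69.9 CPM) lie above all KO libraries (28.4 to 48.4 CPM), and in Tfrc KO 4 stands at 161 CPM.

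Slc30a10 had 0 counts in all 14 kidney libraries. With a floor of 3 reads over the pooled libraries, that allows up to 0.324 CPM in AF2, 0.288 CPM in KO and 0.207 CPM in WT kidney, by counting error alone. Slc39a4 had 1, 2 and 2 reads and Cybrd1 7, 1 and 5 reads in all AF2, KO and WT kidney libraries, too few to compare genotypes.

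Whether a genotype effect differed between duodenum and kidney was tested as an interaction over all 28 libraries and 14944 genes. None of the 7 genes with a kidney level passed in AF2 over WT (0.381% of all genes), KO over WT (0.0535%) or AF2 over KO (0.0268%). At an unadjusted p under 0.05 there were 0, 1 and 0 of the 7, beside 10.7%, 7.99% and 7.99% of all genes. DESeq2 and limma-voom called 0 of the 7 as well. The 1 gene was Heph in KO over WT, with an effect in duodenum minus that in kidney of -0.69 ± 0.33 on the log2 scale (unadjusted p 0.0425, adjusted p 0.609). For Slc11a2 the difference of effects was 0.40 ± 0.70 in AF2 over WT, 1.28 ± 0.70 in KO over WT and -0.88 ± 0.77 in AF2 over KO (adjusted p 0.905, 0.674 and 0.834), so the kidney result was not shown to differ from duodenum. Slc30a10, Slc39a4 and Cybrd1 have no kidney level against which an effect could be read, so they are not counted here.

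**Figure D5:**
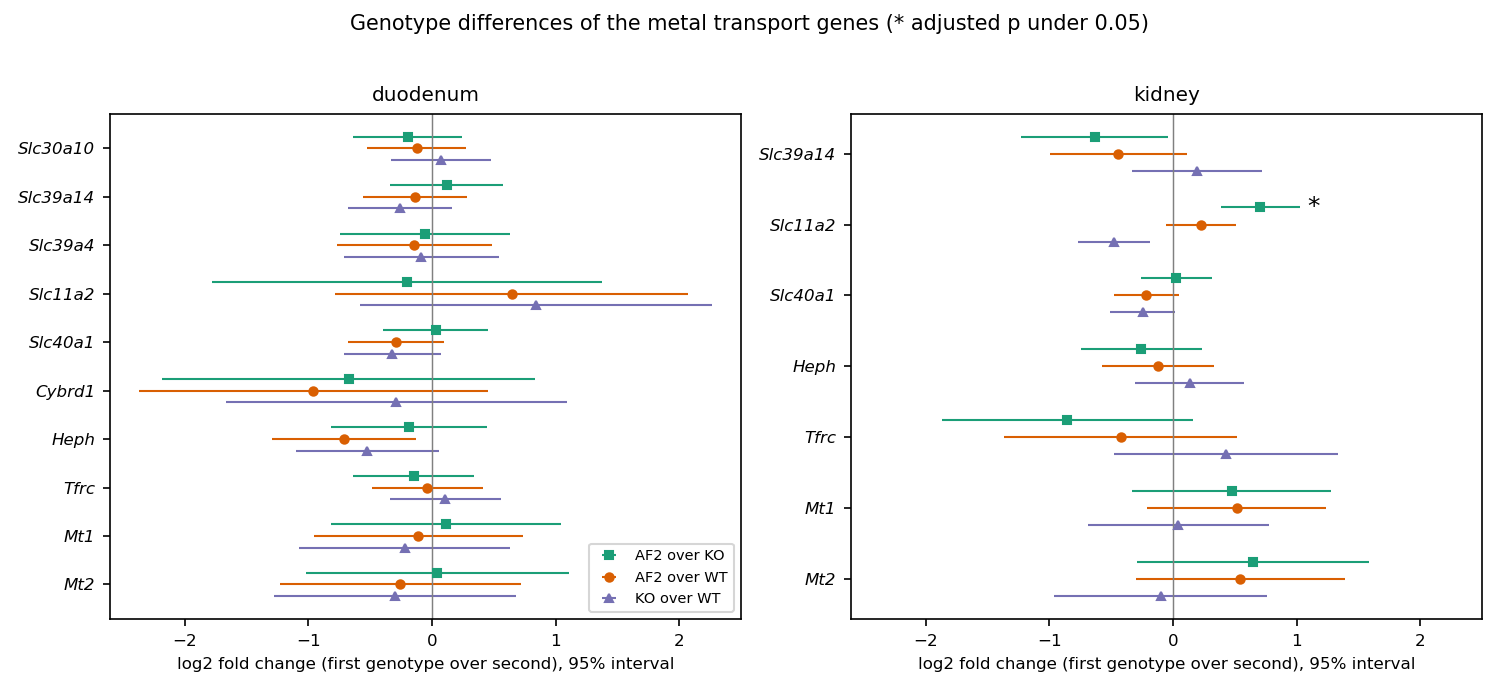
Log2 fold changes (x axis) of the 10 genes in duodenum (left) and the 7 tested genes in kidney (right), AF2 over KO (squares), AF2 over WT (circles) and KO over WT (triangles), with 95% intervals from the edgeR fit. The star marks the 1 change with an adjusted p under 0.05, Slc11a2 in kidney at 0.71, and the intervals of duodenal Slc11a2 and Cybrd1 are the widest.

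More of these genes passed between tissues than between genotypes, and 69.9% of all 14944 genes passed between tissues as well. The sizes of tissue and genotype effects were not compared by a test. The 7 genes tested in kidney all passed as higher in WT duodenum than in WT kidney, where 35.7% of 14944 genes were higher and 34.3% lower. Slc30a10, Slc39a4 and Cybrd1 entered the fit of both tissues only through their duodenal counts, which fixed their direction, so they are described and not counted. Levels are given here as CPM of both tissues scaled together. Slc30a10 had 7022 reads in the WT duodenal libraries and 0 in the WT kidney libraries, a pooled read rate at least 1349-fold higher against the floor of 3 reads over the group, and its mean over the 6 duodenal libraries was 269 ± 49.2 CPM (SD, n = 6). Slc39a4 had 5775 reads in duodenum and 2 in kidney, both of them from WT 6, with a read rate 1664 times that of kidney (exact 95% counting interval 460.4 to 13742). The fitted log2 fold change of Slc39a4 was 10.33 with all libraries and 13.20 without kidney WT 6, so its size rests on that library. Cybrd1 had 19122 and 5 reads, a ratio of rates of 2204 (944 to 6787).

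The transporters of both tissues differed by less. Slc40a1 averaged 760.4 ± 184 CPM in duodenum and 59.0 ± 8.35 CPM in kidney, 12.9-fold higher (adjusted p 7.08e-21). The differences were 11.1-fold for Slc39a14, 10.4-fold for Heph, 6.90-fold for Slc11a2 and 2.97-fold for Tfrc (adjusted p 3.34e-13, 3.45e-15, 1.32e-05 and 7.96e-05), and the WT libraries of the 2 tissues did not overlap in any of these 5 genes. Mt1 and Mt2 were 1.89-fold and 2.02-fold higher in duodenum (adjusted p 0.0156 and 0.0203) with overlapping libraries. Both lost the call without duodenal WT 6 (adjusted p 0.0617 and 0.0818), and Mt2 also without kidney WT 1 (0.0534).

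Few other genes of metal handling passed. Lists of iron (34 genes, among them ferritins, hepcidin, transferrin and the Steap reductases), zinc (22 further ZIP and ZnT carriers with Mtf1), manganese and broad divalent metals (6) and copper (10) held 72 genes, of which 53 were tested in duodenum and 56 in kidney. In duodenum 0 of 53 passed in the 3 comparisons, and 7, 7 and 3 had an unadjusted p under 0.05 in AF2 over WT, KO over WT and AF2 over KO, beside 11.8%, 11.4% and 9.98% of all genes. In kidney 0 of 56 passed in KO over WT and AF2 over KO, and 7 and 6 had an unadjusted p under 0.05, beside 10.5% and 11.5% of all genes. Their median log2 fold change lay between -0.13 and 0.03 over the 6 comparisons, beside medians that round to 0.00 over all genes.

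In AF2 over WT kidney 2 of the 56 passed, beside 2.71% of all genes, and 13 of the 56 had an unadjusted p under 0.05, beside 14.5% of all genes. Hmox1, heme oxygenase, which frees iron from heme, measured 8.39 to 43.4 CPM in AF2 and 4.03 to 11.7 CPM in WT, a log2 fold change of 2.19 ± 0.43 (adjusted p 0.00988), and its KO range was 5.66 to 13.2 CPM. The erythroid marker sum, which reads blood in the tissue, was 914 to 2421 CPM in AF2 and 939 to 1560 CPM in WT over 7 genes with 0 at 0. Of 6 tested erythroid markers 6 had a higher mean (median log2 fold change 0.44) and 1 passed, higher, beside 2.71% of all genes. The erythroid list includes Slc4a1, which is also in the distal tubule and collecting duct list. The smallest adjusted p was 0.0253 in both lists. Of 7 tested macrophage markers 1 passed, higher, beside 2.71% of all genes, and 4 had a lower mean. Macrophage sums were 134 to 200 CPM in AF2 and 92.4 to 265 CPM in WT. The part of either list was not tested. Hmox1 lost its call with limma-voom (adjusted p 0.0774) and in a fit that blocks on stretches of library codes (0.143). Slc30a2, a zinc exporter into vesicles, fell to 11.7 to 16.4 CPM in AF2, against 22.5 to 37.9 CPM in WT (log2 fold change -0.87 ± 0.20, adjusted p 0.0113), a gene outside the naming rule and chosen after its values were seen. Slc30a2 measured 13.99 to 27.8 CPM in KO, between and overlapping both, with a log2 fold change of -0.49 ± 0.20 over WT (adjusted p 0.329). It lost its call without AF2 2 (adjusted p 0.0594) and in the fit that blocks on code stretches (0.257).

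Markers of kidney cell types differed between the same groups. In AF2 over WT 2.71% of all 13502 genes passed, and 6831 had a higher and 6671 a lower mean. The mean of 8 of 8 proximal tubule markers was lower in AF2 than in WT and 1 passed (median log2 fold change -0.33). The mean of 5 of 5 podocyte markers was higher and 2 passed (median 0.51), with sums of 361 to 463 CPM in AF2, 289 to 316 CPM in KO and 233 to 302 CPM in WT. Of 5 markers of the thick ascending limb 4 had a higher mean and 2 passed (median 0.25), with sums of 4202 to 4625 CPM in AF2, 3772 to 4616 CPM in KO and 2950 to 3997 CPM in WT. In all 3 lists 0 markers were at 0, and their part in the Hmox1 and Slc30a2 differences was not tested.

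The hypoxia list (12 genes, 12 tested in duodenum and 11 in kidney), chosen because HIF2 drives duodenal Slc11a2 and Cybrd1, had 0 calls in the 3 duodenal comparisons. In kidney 1 of 11 passed, the hypoxia-inducible Ndrg1 in KO over WT, where 0.844% of all genes passed. Ndrg1 measured 2298 ± 676 CPM in KO (SD, n = 4) and 1096 ± 266 CPM in WT (SD, n = 6). Its log2 fold change was 1.07 ± 0.22 with an adjusted p of 0.0415. It lost its call in 9 of the 14 fits with 1 library left out (adjusted p up to 0.172), with limma-voom (0.0758), with no filter on low counts (0.0654) and in the fit that blocks on code stretches (0.621). Among 7 tested vitamin D receptor targets and mineral genes of duodenum, 1 passed in AF2 over WT, the apical calcium channel Trpv6, beside 0.0677% of all genes. In each of the other comparisons 1 passed, Vdr itself, beside 0.0226% of all genes in KO over WT and 0.015% in AF2 over KO. Slc30a10 did not pass. In kidney 5 of 9 such genes passed in AF2 over WT, beside 2.71% of all genes (Cyp24a1, S100g, Vdr and Cldn2 lower, Cyp27b1 higher). In KO over WT 4 of 9 passed, beside 0.844% (Cyp24a1, S100g and Vdr lower, Cyp27b1 higher). In AF2 over KO 2 of 9 passed, beside 0.333% (Vdr higher, Calb1 lower). Vdr is the targeted gene, so its own calls say nothing about receptor targets.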

How the data were processed

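RNA was measured in 28 libraries. Tissue was homogenised in TRIzol and QuantSeq libraries, which read transcript 3' ends, were made from total RNA, per the labels' protocols. The authors deposited raw counts per symbol and library, 1 table per tissue, per the file headers. The submitters' processing notes name mm10 and limma 3.34.9, with no role given. For the aligner, counter, strand use and filters nothing is given in the sources used here. All values in both tables were even, so a read is taken as 2 counts, while tests ran on the values unchanged. Genotype came from titles, and library codes matched columns.

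Each tissue was fitted in edgeR 4.0.16 (R 4.3.3) with all 14 libraries, filterByExpr by group, TMM scaling and robust quasi-likelihood F tests, two-sided, adjusted by Benjamini-Hochberg over all genes tested and called under 0.05. The interaction and the tissue contrast used 1 fit of all 28 libraries. Standard errors were recovered from each log2 fold change and its F statistic, and 95% intervals use the fit's degrees of freedom. CPM use TMM-scaled totals. Correlations used log2 CPM with a prior count of 2 and 100000 permutations, or exact permutation within runs of library codes. Intervals of reads and the floor of 3 reads cover counting error only. The scripts were tested on simulated data. Alternatives were RLE scaling, DESeq2 1.42.0, limma-voom 3.58.1, no filter, halved counts, blocks and left-out libraries. Coordinates are of GENCODE M21 and promoters of RefSeq. The members and gene lists were chosen with earlier results of these data known. Named are all 10 genes, up to 6 called genes of the lists per comparison by smallest p, otherwise the 2 smallest p of each list, and the 3 genes most like Slc30a10. Of these, genes other than the 10 are described only for the comparisons within a tissue, and list genes that did not pass are given as counts. No pair of libraries in a group was identical, and the smallest chi-square per degree of freedom was 5.00 in duodenum and 1.96 in kidney.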

Additional observations from a re-analysis of the deposited data

Results flagged for a closer look

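In 6 of 57 groups of 4 to 6 libraries the highest or lowest library lay beyond Dixon's 95% critical value, where chance gives about 1 in 20. In duodenum, Slc30a10 was low in AF2 4 at 160.5 CPM, with the nearest of the other AF2 libraries at 272 CPM, and Mt2 was high in AF2 1 at 388 CPM, with the nearest at 241 CPM. In kidney, Slc11a2 was high in WT 5 at 68.2 CPM, with the nearest of the other WT libraries at 53.0 CPM. The other 3 rest on few reads, with every other library of the group at 0. They were Slc39a4 at 0.364 CPM in AF2 4 and at 1.12 CPM in WT 6, and Cybrd1 at 0.295 CPM in KO 3. The rate of 1 in 20 does not apply to these 3, since reads in only 1 library always give the largest possible ratio. The count of 6 in 57 therefore cannot be read as an excess over chance. Their causes were not tested.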

How the results depend on the processing

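Few duodenal genes passed in edgeR, and the counts of all genes called moved with the tool and the filter, whereas the call of Slc11a2 was the only member call between genotypes with all libraries. All genes called in duodenum were 9 in AF2 over WT, 3 in KO over WT and 2 in AF2 over KO, against 156, 110 and 76 with DESeq2 and 240, 215 and 106 with no filter. In kidney they were 366, 114 and 45, against 220 (KO over WT) and 152 (AF2 over KO) with DESeq2 and 590, 252 and 193 with no filter. For the interaction they were 57, 8 and 4, against 187, 67 and 27 with DESeq2, 37, 2 and 0 with limma-voom, and 23 (KO over WT) with no filter. limma-voom called 14 in duodenal AF2 over WT and gave 0.13 for duodenal Slc11a2 in AF2 over KO, a reversed sign. Halved counts gave 8 in duodenal KO over WT and 1 in the AF2 over KO interaction. Of the list genes named in kidney, Ndrg1 (KO over WT) lost its call with limma-voom, no filter and the code block, Hmox1 (AF2 over WT) with limma-voom and the code block, and Slc30a2 with the code block. RLE scaling changed the direction or the call of 0 of 84 gene results.

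With the replicate number as a block, all genes called were 1 in duodenal AF2 over WT and 14 in AF2 over KO, and 36 in the AF2 over WT interaction with the block over both tissues. Signs reversed for duodenal Slc39a4 (0.027 in AF2 over WT, 0.15 in KO over WT), Mt1 (0.069) and Mt2 (0.051) in AF2 over WT, Slc40a1 in AF2 over KO (-0.014), and kidney Mt1 in KO over WT (-0.023). Slc11a2 in AF2 over KO kidney kept its call under the replicate block (0.71, adjusted p 0.0442). The labels do not say that a number marks a shared animal or batch, and the correlations were not all over 0.1, so the numbers were not taken to pair the samples. Same-numbered libraries of different genotypes correlated at -0.38 to 0.218 in duodenum and -0.06 to 0.288 in kidney. Across tissues they correlated at -0.12 to 0.152, and 8 of 14 libraries were closest to their own number, a hint that the data give and the labels do not.

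Blocking on library code stretches gave 131, 1 and 5 genes in duodenum (AF2 over WT, KO over WT, AF2 over KO), 121, 25 and 1 in kidney with 0 members in AF2 over KO, and 33 and 3 for the AF2 over WT and KO over WT interactions. Signs reversed in duodenum for Tfrc in AF2 over WT (0.057), for Slc39a14 (0.11), Slc39a4 (0.45) and Cybrd1 (0.56) in KO over WT, and for Slc39a14 (-0.23), Slc40a1 (-0.24), Tfrc (0.038), Mt1 (-0.11) and Mt2 (-0.18) in AF2 over KO. In kidney they reversed for Heph (-0.046) and Mt1 (-0.43) in KO over WT and Slc40a1 (-0.16) in AF2 over KO. Interactions reversed for Slc40a1 (0.0059 in AF2 over WT, 0.096 in KO over WT, -0.090 in AF2 over KO), Mt1 (0.18) and Mt2 (0.25) in KO over WT, and Heph (-0.92) in AF2 over KO. Of the correlations, Slc11a2 after subtracting genotype means gave 0.649 with Cybrd1 and 0.614 with Tfrc in duodenum and 0.144 with Tfrc in kidney. Without the 2 farthest libraries it gave 0.704 with Cybrd1 in duodenum, and -0.041 with Slc40a1 and -0.781 with Tfrc in kidney. The cause was not tested in any of these.

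Over fits without 1 library each, the counts ranged from 0 to 217 (AF2 over WT), 1 to 229 (KO over WT) and 1 to 4 (AF2 over KO) in duodenum, 38 to 206 (KO over WT) and 22 to 78 (AF2 over KO) in kidney, and 19 to 123, 0 to 23 and 0 to 7 for the interactions. Members called were 0 to 1 in duodenal AF2 over WT, kidney KO over WT and kidney AF2 over KO. Log2 fold changes with a reversed sign ranged as follows. In duodenal AF2 over WT they were -0.19 to 0.036 for Slc30a10, -0.16 to 0.048 for Tfrc, -0.34 to 0.12 for Mt1 and -0.48 to 0.020 for Mt2. In duodenal KO over WT they were -0.13 to 0.20 for Slc30a10, -0.28 to 0.048 for Slc39a4, -0.092 to 0.30 for Tfrc and -0.58 to 0.027 for Mt1. In duodenal AF2 over KO they were -0.32 to 0.011 for Slc30a10, -0.29 to 0.14 for Slc39a4, -0.79 to 0.58 for Slc11a2, -0.13 to 0.17 for Slc40a1, -1.27 to 0.071 for Cybrd1, -0.34 to 0.053 for Tfrc, -0.13 to 0.47 for Mt1 and -0.23 to 0.41 for Mt2. In kidney they were -0.0088 to 0.27 for Heph, -0.16 to 0.65 for Tfrc, -0.14 to 0.23 for Mt1 and -0.34 to 0.13 for Mt2 in KO over WT, and -0.016 to 0.13 for Slc40a1 in AF2 over KO. Interactions were -0.20 to 0.63 for Slc11a2 and -0.27 to 0.016 for Slc40a1 in AF2 over WT, -0.59 to 0.21 for Tfrc and -0.60 to 0.056 for Mt2 in KO over WT, and -0.16 to 0.16 for Slc40a1, -0.060 to 0.25 for Heph and -0.59 to 0.013 for Mt1 in AF2 over KO. No reversed value passed the threshold. In kidney 3 members had too few reads for any of these fits, which depth limits.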
